A study of Mus musculus with 6 samples.

Results

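A set of 10 regulators and markers of the primitive endoderm was examined in 3 mouse chromosome transfer embryonic stem (ES) cell lines: Gata6, Gata4, Sox17, Sox7, Foxa2, Hnf4a, Pdgfra, Dab2, Cubn and Afp. The genes were taken from a list of names that was chosen with earlier results of these data known. All 10 of 10 had a probe set that carries their symbol alone, among 19938 genes measured in all. The lines carried the names ♂M-1 and ♂M-3, for the 2 ♂M lines, and ZM-1, and the labels do not spell out these prefixes or give sex, strain or passage. Each line was represented by 2 biological repeats, which gave 6 whole-transcript gene arrays. All lines shared 1 culture condition, gelatin-coated plates and a medium with PD0325901, which blocks MEK, CHIR99021, which blocks GSK3β, and the cytokine LIF. The series sets the expression profiles of these lines side by side, in a study of how the maternal and the paternal pronucleus differ in reprogramming. With 1 ZM line, a difference between the kinds of line cannot be told apart from a difference between single lines.

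The primitive endoderm is the layer of the blastocyst that gives rise to the yolk sac endoderm. It forms from the inner cell mass next to the epiblast, the layer from which ES cells are derived. FGF signalling through MEK and ERK promotes this fate in mouse embryos, with Gata6 as an early regulator opposed by Nanog, followed by Pdgfra, Sox17, Gata4 and Sox7. Afp, Cubn, Dab2, Foxa2 and Hnf4a are features of the visceral endoderm, the derivative that takes up and secretes nutrients and serum proteins.

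Each array gave 1 linear intensity for a probe set. Brightness also depends on the probes, so levels are compared between lines for the same gene and not between genes. The median of all probe sets lay between 67.2 and 71.3 in the 6 arrays and the lower quartile between 23.8 and 25.1. Of 16 naive ES cell markers, all 16 lay above the array median in 5 arrays and 15 did in the second ZM-1 array. This is a coarse check of the labelled cell type, since probe sets differ in brightness. Of the 10 primitive endoderm genes, 3 to 6 lay above the array median, depending on the array. Array background was not used here, so a gene with a line mean under the range of the lower quartiles is described by its levels, and its log2 differences carry little information. Differences are of log2 of the intensity plus 1, tested with limma and adjusted by the Benjamini-Hochberg method over all 19938 genes, with an adjusted p under 0.05 as the threshold. The labels do not say how the repeats of a line were separated, so p-values measure the spread between these arrays.

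Across the 3 lines, 0 of the 6 transcription factors passed limma's test between any pair, and 2 of the other 4 genes passed in 1 pair each. At an unadjusted p under 0.05, 1, 0 and 2 of the 6 factors passed between ♂M-1 and ZM-1, ♂M-3 and ZM-1, and the pair of ♂M lines, against 20%, 30% and 19.8% of all genes. Between ♂M-1 and ZM-1, 4.41% of all genes passed the adjusted test and 0 of the 10 genes did. Dab2 was higher in ♂M-1 than in ♂M-3, a pair in which 6.54% of all genes passed. Pdgfra was lower in ♂M-3 than in ZM-1, a pair in which 15.9% of all genes passed. The windows upstream of these 2 genes are shown because they are the ones that passed the test. RefSeq windows of GRCm38.p6 were used for 6 of the 10 genes, and none of Gata4, Gata6, Sox17 or Sox7 was used. Windows of the 10 genes on the chromosome of Gata6 were removed in processing, so the lack of a Gata6 window here does not show that RefSeq has none. The set of windows searched held none under the names Gata4, Sox17 or Sox7. The 250 bases before the start are printed 5′ to 3′ on the plus strand, with matches to GATA motifs in capitals. The motifs were AGATAA, its form starting with T (written TGATAA), its form ending with G (written AGATAG) and the form with both changes (written TGATAG). Dab2 has 2 listed starts, with windows at chr15:6299539-6299788 and chr15:6386498-6386747, and Pdgfra has 1, with a window at chr5:75152001-75152250.
Dab2, upstream start: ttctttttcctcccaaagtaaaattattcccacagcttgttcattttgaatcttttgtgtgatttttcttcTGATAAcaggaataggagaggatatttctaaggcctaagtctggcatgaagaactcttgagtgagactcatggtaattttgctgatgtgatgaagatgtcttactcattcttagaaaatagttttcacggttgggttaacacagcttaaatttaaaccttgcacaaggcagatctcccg
Dab2, downstream start: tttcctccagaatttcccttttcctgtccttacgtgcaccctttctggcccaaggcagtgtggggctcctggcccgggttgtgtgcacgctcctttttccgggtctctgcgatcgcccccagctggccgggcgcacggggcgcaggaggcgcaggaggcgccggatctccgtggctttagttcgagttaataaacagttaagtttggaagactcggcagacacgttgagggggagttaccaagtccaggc
Pdgfra: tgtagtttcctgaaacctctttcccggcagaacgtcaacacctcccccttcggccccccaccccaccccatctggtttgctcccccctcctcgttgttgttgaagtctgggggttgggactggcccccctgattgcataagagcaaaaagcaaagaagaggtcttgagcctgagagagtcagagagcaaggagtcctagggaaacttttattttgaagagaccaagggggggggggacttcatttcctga

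The upstream Dab2 window held 1 match, TGATAA, and the downstream Dab2 window and the Pdgfra window held 0. Of the 10 windows of the 6 genes, 3 held a GATA match, against 26.5% of all 32851 RefSeq windows of this length. That background did not leave out the chromosome of Gata6. Both strands were searched, and the 4 motifs share the letters GATA, so neighbouring matches can overlap. The forkhead motif TGTTTAC and the SOX motif AACAATG were found in 0 of the 10 windows, against 3.17% and 3.29% of all windows. The 2 Dab2 windows differed in base composition, with 36.8% G and C before the upstream start and 60.0% before the downstream one, against a median of 52.4% over all windows. A match here is a description of the letters and does not show binding.

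Gata6 and Gata4 are zinc finger factors that can each turn ES cells toward extraembryonic endoderm when forced on. Gata6 measured 122 and 116 in ♂M-1, 99.1 and 101 in ♂M-3, with 114 and 110 in ZM-1. The lines did not overlap: both ♂M-1 arrays were highest and both ♂M-3 arrays lowest. The distances were small and none passed the test. The log2 difference was 0.25 for ♂M-1 over ♂M-3 (95% interval 0.08 to 0.41, adjusted p = 0.0974), −0.16 for ♂M-3 over ZM-1 (−0.33 to 0.01, adjusted p = 0.196) and 0.09 for ♂M-1 over ZM-1 (−0.08 to 0.26, adjusted p = 0.570). Gata4 measured 96.2 and 86.1 in ♂M-1, 91.9 and 94.7 in ♂M-3, with 87.6 and 91.0 in ZM-1. The repeats of ♂M-1 alone spanned all other Gata4 arrays. Its largest difference, 0.06 for ♂M-3 over ZM-1, had a 95% interval of −0.12 to 0.25 (adjusted p = 0.671).

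Sox17 and Sox7 are related HMG-box factors of the SOXF group, both expressed in the primitive endoderm and also in endothelium. Sox17 measured 26.0 and 24.2 in ♂M-1, 23.4 and 24.8 in ♂M-3, with 24.3 and 31.2 in ZM-1. Sox17 lay below the lower quartile in 3 of 6 arrays, and the second ZM-1 array stood above the other 5. Sox7 measured 48.5 and 42.4 in ♂M-1, 39.4 and 37.9 in ♂M-3, with 45.7 and 42.0 in ZM-1. Both ♂M-3 arrays were the lowest for Sox7. The log2 difference was −0.18 for ♂M-3 over ZM-1 (95% interval −0.38 to 0.03, adjusted p = 0.229) and 0.23 for ♂M-1 over ♂M-3 (0.02 to 0.43, adjusted p = 0.198), with ♂M-1 and ZM-1 overlapping.

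Foxa2, a forkhead factor of visceral and definitive endoderm, measured 65.9 and 63.2 in ♂M-1, 64.0 and 73.8 in ♂M-3, with 68.9 and 90.7 in ZM-1. The ♂M-1 arrays were below both ZM-1 arrays, by a log2 difference of −0.29 (95% interval −0.58 to −0.00, adjusted p = 0.248). The repeats of ZM-1 differed by 1.32 times, more than the ♂M-1 and ZM-1 means did. Hnf4a, a nuclear receptor that drives serum protein genes in visceral endoderm and liver, measured 70.3 and 73.3 in ♂M-1, 76.9 and 83.0 in ♂M-3, with 62.1 and 77.2 in ZM-1. Both ♂M-3 arrays were above both ♂M-1 arrays, but the ZM-1 repeats spanned ♂M-1 and the lower ♂M-3 array. The difference for ♂M-3 over ZM-1 was 0.20 (95% interval −0.04 to 0.44, adjusted p = 0.238). Over the 6 factors and 3 pairs, the 95% intervals reached no further than −0.58 (Foxa2, ♂M-1 over ZM-1) and 0.44 (Hnf4a, ♂M-3 over ZM-1).

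**Figure D1:**
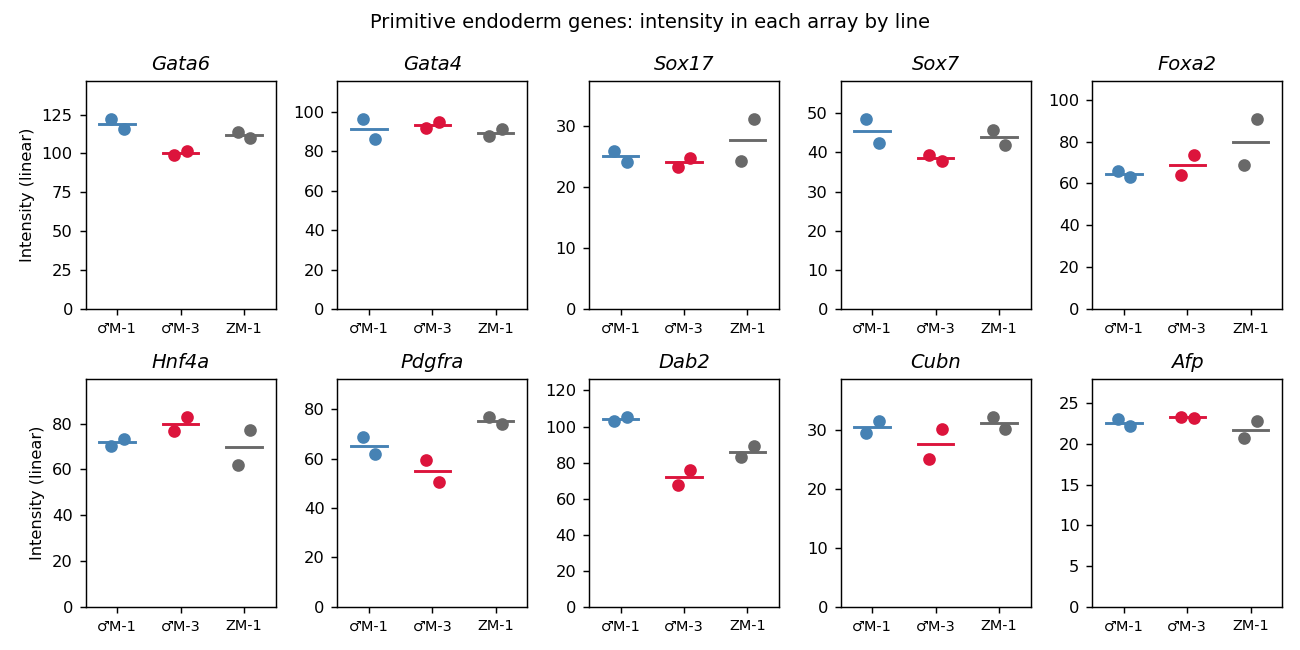
Intensity (linear axis from 0, 1 panel per gene) in each of the 6 arrays; points are arrays and horizontal bars are means of the 2 repeats of ♂M-1, ♂M-3 and ZM-1. Dab2 sat at 103 and 105 in ♂M-1 and at 67.6 and 76.1 in ♂M-3, and Pdgfra at 59.6 and 50.5 in ♂M-3 and at 77.0 and 73.9 in ZM-1.

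Pdgfra, the PDGF receptor that marks primitive endoderm precursors in the mouse blastocyst, was lower in ♂M-3. It measured 59.6 and 50.5 in ♂M-3 and 68.8 and 61.7 in ♂M-1, against 77.0 and 73.9 in ZM-1. The lines did not overlap: both ♂M-3 values were lowest and both ZM-1 values highest. The mean was 55.0 ± 6.39 in ♂M-3 and 75.5 ± 2.19 in ZM-1 (SD, n = 2 each), 1.37-fold lower (log2 difference −0.45, SE 0.10, limma adjusted p = 0.0153). Against ♂M-1, the difference for ♂M-1 over ♂M-3 was 0.24 (95% interval 0.02 to 0.47, adjusted p = 0.204), and ♂M-1 over ZM-1 gave −0.21 (−0.43 to 0.01, adjusted p = 0.282). The call against ZM-1 was lost without ♂M-3 replicate 2 (log2 difference −0.34, adjusted p = 0.116) or without ZM-1 replicate 1 (−0.42, adjusted p = 0.0547), and with all probe sets of the table as features (adjusted p = 0.07).

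Pdgfra is also a marker of fibroblasts and other mesenchyme. In the same comparison, 13 of 19 fibroblast markers were lower in ♂M-3 than in ZM-1 and 1 was higher. That was 73.7% of the list, against 15.9% of all genes. The median log2 difference was −0.45, against 0.00 over all genes. Dcn, a matrix proteoglycan, averaged 104 ± 11.3 in ♂M-3 and 571 ± 35.3 in ZM-1 (SD, n = 2 each, limma adjusted p = 6.63e-06). The 19 markers summed to 11134 and 11257 in ♂M-3 and to 12991 and 12953 in ZM-1, though a sum leans on bright genes. In each array 16 of the 19 lay above the median and 2 below the lower quartile. Lum, counted among the 13, averaged 13.3 in ♂M-3 and 16.8 in ZM-1, under the range of the lower quartiles. Pdgfrb, the related receptor of mural and mesenchymal cells and a member of that list, averaged 169 ± 3.26 in ♂M-3 and 161 ± 7.62 in ZM-1 (SD, n = 2 each, limma adjusted p = 0.580). Leaving out 1 array gave 8 to 11 lower fibroblast markers, the 8 in the fit that lacked ♂M-3 replicate 2. Of 10 blood and immune cell markers, 6 were lower in ♂M-3 and 0 higher, 60% of the list against 15.9% of all genes. The 10 summed to 707 and 720 in ♂M-3 and to 909 and 845 in ZM-1. Above the array median lay 1 in each ♂M-3 array, and 4 and 3 in the ZM-1 arrays. Adgre1, among the 6, averaged 22.0 in ♂M-3, under the range of the lower quartiles. After quantile normalization or median centring 4 were lower, and 2 with all probe sets as features. The part of either marker list in the Pdgfra difference was not tested. In bulk RNA, fewer cells of a type and less RNA per cell cannot be told apart.

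Dab2, an endocytic adaptor that carries receptors such as megalin into the cell, had the widest range of the 10 genes, with its highest array 1.56 times its lowest. It measured 103 and 105 in ♂M-1 and 67.6 and 76.1 in ♂M-3, with 82.9 and 89.2 in ZM-1. The 3 lines did not overlap, with ♂M-1 highest and ♂M-3 lowest. The mean was 104 ± 1.58 in ♂M-1 and 71.9 ± 6.07 in ♂M-3 (SD, n = 2 each), 1.45-fold higher in ♂M-1 (log2 difference 0.53, SE 0.09, limma adjusted p = 0.00762). Neither distance to ZM-1 passed the test. It was 0.28 for ♂M-1 over ZM-1 (95% interval 0.08 to 0.47, adjusted p = 0.115) and −0.26 for ♂M-3 over ZM-1 (−0.45 to −0.06, adjusted p = 0.0740).

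The Dab2 call between ♂M-1 and ♂M-3 was lost without ♂M-1 replicate 2 (log2 difference 0.52, adjusted p = 0.0788) or without ♂M-3 replicate 1 (0.45, adjusted p = 0.0715), and with all probe sets as features (adjusted p = 0.0648). A second Dab2 probe set, not used because it was dimmer, lay below the lower quartile in all 6 arrays. It measured 10.5 and 10.4 in ♂M-1, 9.18 and 10.6 in ♂M-3, with 11.9 and 10.9 in ZM-1. Averaging the 2 probe sets on the log2 scale, the dim one included, gave a difference of 0.30 for ♂M-1 over ♂M-3 (adjusted p = 0.0684), which moved the value by over 1.5 times. Dab2 is also expressed in mesenchymal cells and macrophages. Between these lines 13 of 19 fibroblast markers were higher in ♂M-1 and 0 lower, with sums of 13342 and 14198 in ♂M-1 and of 11134 and 11257 in ♂M-3, and 7 were higher without ♂M-3 replicate 2 and 8 without ♂M-3 replicate 1 or ♂M-1 replicate 2. The 13 were 68.4% of the list, against 6.54% of all genes. The sums lean on bright genes such as Acta2, at 3869 ± 372.5 in ♂M-1 and 2754 ± 69.7 in ♂M-3 (SD, n = 2 each). Of 10 blood and immune cell markers, 0 passed in limma between ♂M-1 and ♂M-3 and 1 had an unadjusted p under 0.05. Their sums were 706 and 729 in ♂M-1 and 707 and 720 in ♂M-3. The part of the fibroblast markers in the Dab2 difference was not tested.

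The genes whose pattern was most like that of Dab2, by Pearson r of log2 values over the 6 arrays, were Tcl1b5 (r = 0.995), Tbc1d16 (r = 0.992) and Lef1 (r = 0.991). The 6 arrays come from 3 lines, and 69 of 17073 ranked genes had r of at least 0.95. Lef1, a transcription factor of Wnt signalling, averaged 265 ± 5.79 in ♂M-1, 211 ± 7.38 in ♂M-3, with 240.3 ± 6.61 in ZM-1 (SD, n = 2 each). Tbc1d16, a Rab GTPase activating protein, averaged 175 ± 0.721, 155 ± 3.01 and 165 ± 4.42 in the same order of lines. Tcl1b5 belongs to a multigene family whose copies may share probes, and averaged 48.1 ± 0.374, 41.8 ± 1.62 and 44.3 ± 0.781.

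Cubn, cubilin, is the large receptor that takes up vitamin B12 complexes and albumin together with amnionless in visceral endoderm and kidney. It measured 29.6 and 31.5 in ♂M-1, 25.2 and 30.3 in ♂M-3, with 32.3 and 30.2 in ZM-1. The lines overlapped in all 3 pairs, and the adjusted p was between 0.286 and 0.900 over the 3 pairs. Afp, alpha-fetoprotein, the main serum protein made by visceral endoderm and fetal liver, lay below the lower quartile in all 6 arrays. It measured 23.0 and 22.2 in ♂M-1, 23.3 and 23.2 in ♂M-3, with 20.7 and 22.8 in ZM-1 (adjusted p between 0.468 and 0.848). Its relatives Alb and Afm were also below the lower quartile in all 6 arrays, with line means from 15.7 to 16.1 for Alb and from 13.2 to 14.7 for Afm.

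Counted by pair, 0 of the 10 genes passed between ♂M-1 and ZM-1 in limma, against 4.41% of all genes (1.89% higher in ♂M-1 and 2.53% lower), and 2 of 10 had an unadjusted p under 0.05, against 20% of all genes. Between ♂M-3 and ZM-1, 1 of 10 passed, against 15.9% of all genes (8.66% higher and 7.2% lower in ♂M-3), and 2 had an unadjusted p under 0.05, against 30% of all genes. Between ♂M-1 and ♂M-3, 1 of 10 passed, against 6.54% of all genes (3.22% higher in ♂M-1 and 3.32% lower), and 4 had an unadjusted p under 0.05, against 19.8%. With 10 genes, no difference from the background is read from these shares. The arrays of the compared lines did not overlap for 4 of the 10 genes between ♂M-1 and ZM-1, for 6 between ♂M-3 and ZM-1 and for 6 between ♂M-1 and ♂M-3, against 48.9%, 57.5% and 50.5% of all genes. The median log2 difference of the 10 genes was 0.04 in ♂M-1 over ZM-1, −0.17 in ♂M-3 over ZM-1 and 0.10 in ♂M-1 over ♂M-3, against −0.01, 0.00 and −0.02 over all genes. The comparisons share arrays, so these values are not independent.

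**Figure D2:**
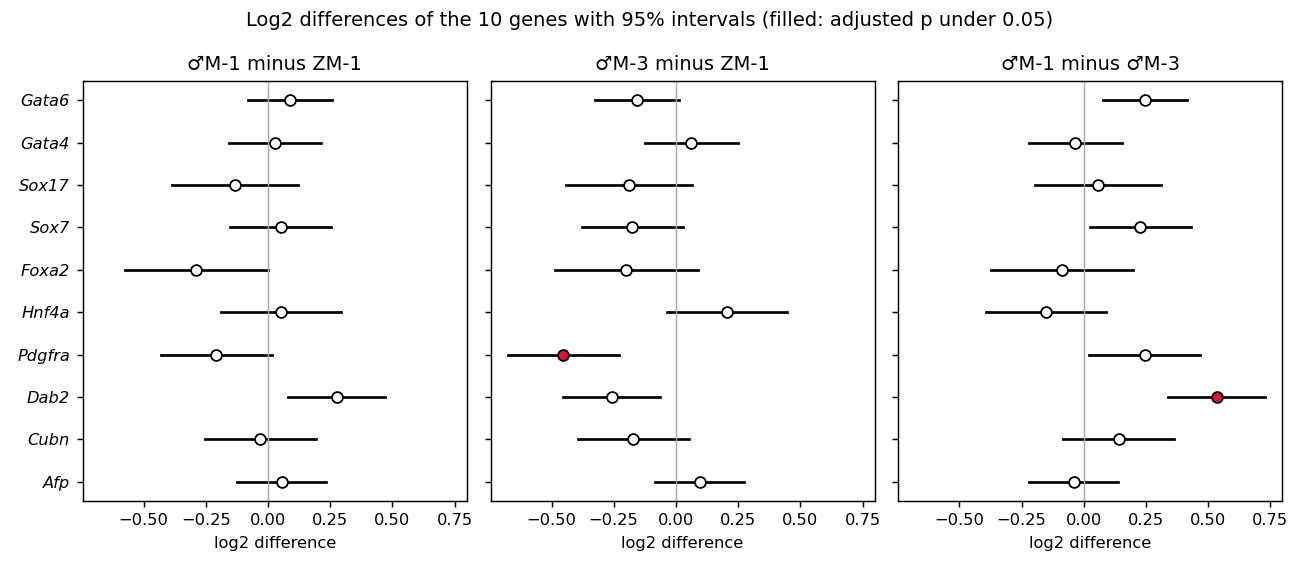
Log2 difference (x axis, log2 of intensity plus 1) of the 10 genes in the 3 pairs of lines; points are estimates from limma, bars are 95% intervals, and filled points passed the adjusted threshold. Only Pdgfra (−0.45, ♂M-3 minus ZM-1) and Dab2 (0.53, ♂M-1 minus ♂M-3) are filled.

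Relatives and partners of these genes were then examined: 21 other members of their families, ligands and complexes. Between ♂M-1 and ZM-1, 0 of 21 passed in limma, against 4.41% of all genes, and 5 had an unadjusted p under 0.05, against 20%. Between ♂M-3 and ZM-1 2 were higher and 1 lower, 14.3% of the 21 against 15.9% of all genes. Between ♂M-1 and ♂M-3 0 were higher and 4 lower, 19% against 6.54%. With 21 genes, no difference from the background is read from these shares. The 4 became 1 with any 1 of the 4 arrays of the ♂M lines left out. The clearest was Gata2, a GATA factor of blood progenitors and trophoblast. It measured 139 and 151 in ♂M-3 and 90.5 and 78.2 in ♂M-1, against 66.7 and 57.2 in ZM-1. Gata2 was 2.32-fold higher in ♂M-3 than in ZM-1 (adjusted p = 1.46e-04) and 1.71-fold lower in ♂M-1 than in ♂M-3 (adjusted p = 0.00321), and no alternative that tested Gata2 ended either call. The ♂M-1 and ZM-1 arrays were separated by a log2 difference of 0.44 that did not pass (adjusted p = 0.0502). It passed in 6 of the 15 alternatives that tested it, with adjusted p between 0.0254 and 0.248. Gata1, Gata3 and Gata5 passed in no pair, nor did the GATA cofactors Zfpm1 and Zfpm2, the SOXF relative Sox18, or the paralogs Foxa1, Foxa3 and Hnf4g.

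Among PDGF genes, Pdgfb, a ligand that binds both PDGF receptors, was higher in ♂M-3. It measured 166 and 162 in ♂M-3, against 114 and 120 in ZM-1, 1.39-fold higher (adjusted p = 0.00398). In ♂M-1 Pdgfb measured 126 and 133, 1.26-fold lower than in ♂M-3 (adjusted p = 0.0346), which no longer passed when any 1 of the 4 arrays of these lines was left out (adjusted p between 0.118 and 0.186). With all probe sets as features that call was also lost (limma adjusted p = 0.122), as was the Pdgfc call below (0.126). Pdgfa, the ligand specific to Pdgfra, averaged 1357 ± 108 in ♂M-1, 1463 ± 18.6 in ♂M-3, with 1332 ± 1.57 in ZM-1 (SD, n = 2 each). Pdgfa passed in no pair (adjusted p between 0.309 and 0.901). Pdgfc, another ligand of this receptor, was 1.24-fold lower in ♂M-1 than in ♂M-3 (533 ± 10.3 in ♂M-1 and 662 ± 20.8 in ♂M-3, SD, n = 2 each, limma adjusted p = 0.0394), and again did not pass with any 1 of these 4 arrays left out (adjusted p between 0.139 and 0.237) or after quantile normalization (0.0583).

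Of the partners of Cubn and Dab2 in endocytosis, Lrp2 and Lrpap1 each passed in 1 pair and Amn in 0. Lrp2, megalin, the receptor that works with cubilin and binds Dab2, measured 88.2 and 98.2 in ♂M-1, against 122 and 129 in ♂M-3, with 114 in both ZM-1 arrays. It was 1.34-fold lower in ♂M-1 than in ♂M-3 (adjusted p = 0.0173), but not with any 1 of the 4 arrays of these lines left out (adjusted p between 0.0517 and 0.134). With all probe sets as features the Lrp2 call was also lost (limma adjusted p = 0.0946). Lrpap1, the chaperone of megalin, measured 1489 and 1545 in ♂M-3, against 1981 and 2051 in ZM-1. It was 1.33-fold lower in ♂M-3 (adjusted p = 0.00712), and did not pass once ♂M-3 replicate 1 was left out (adjusted p = 0.0593). Amn, amnionless, which anchors cubilin in the membrane, measured 71.1 and 76.7 in ♂M-1, 73.1 and 73.7 in ♂M-3, with 76.1 and 92.6 in ZM-1, and passed in no pair (adjusted p between 0.244 and 0.981).

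**Figure D3:**
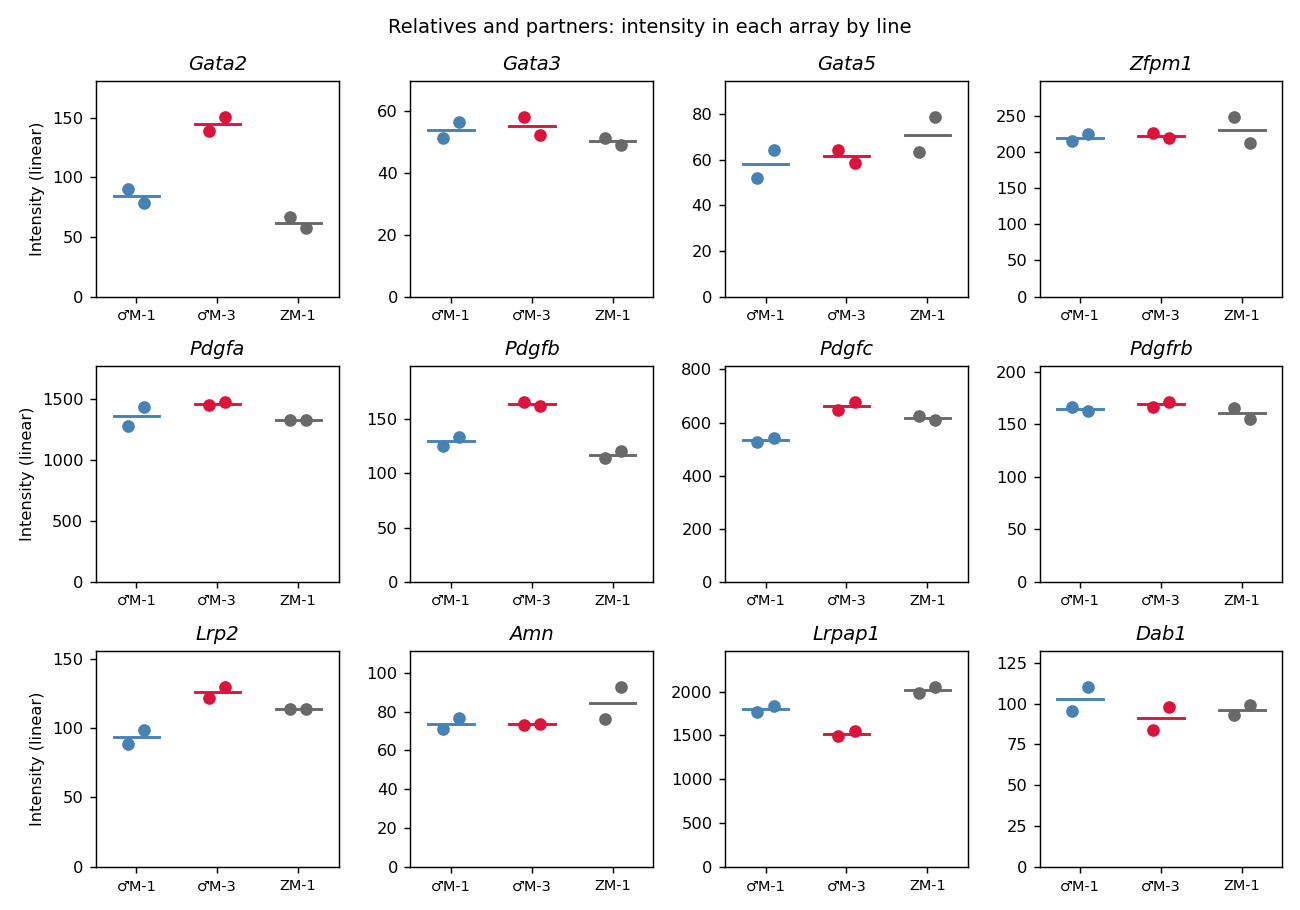
Intensity (linear axis from 0, 1 panel per gene) of 12 relatives and partners in each of the 6 arrays; points are arrays and horizontal bars are means of the 2 repeats of a line. Gata2 sat at 139 and 151 in ♂M-3, above the other 4 arrays, and Lrp2 at 88.2 and 98.2 in ♂M-1, below the other 4.

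A further list of 39 extraembryonic endoderm genes covered secreted proteins, basement membrane genes and keratins. Between ♂M-1 and ZM-1, 1 was higher and 6 lower, with a median log2 difference of −0.05. Of the 6, Tfec (23.7) and Rbp4 (22.5) averaged under the range of the lower quartiles in ♂M-1. Between ♂M-3 and ZM-1, 2 were higher and 11 lower, with a median of −0.08. Between ♂M-1 and ♂M-3, 5 were higher and 4 lower, with a median of 0.02. Markers of other cell types moved in the same pairs. Of 10 blood and immune cell markers, 3 were lower and 0 higher in ♂M-1 when set against ZM-1, with a median of −0.30 and sums of 706 and 729 in ♂M-1 and of 909 and 845 in ZM-1 (1 lower in the fit that lacked ♂M-1 replicate 1). Of 19 fibroblast markers 2 were higher and 3 lower there. The calls were 30% of the blood list and 26.3% of the fibroblast list, against 4.41% of all genes. Adgre1, among the 3 lower blood markers, averaged 22.1 in ♂M-1, under the range of the lower quartiles. In ♂M-3 set against ZM-1, the 13 lower fibroblast and 6 lower blood markers given above had medians of −0.45 and −0.30. Between the ♂M lines 13 fibroblast markers were higher in ♂M-1, with a median of 0.49. The part of these markers in the endoderm list's counts was not tested. The share of the endoderm list that passed was 17.9%, 33.3% and 23.1% in these pairs, beside the shares of all genes given above. Left-out arrays changed these counts: the 11 became 5 without ♂M-3 replicate 1 or 2, 6 without ZM-1 replicate 2 and 7 without ZM-1 replicate 1, and the 6 became 3 without ♂M-1 replicate 2. The 5 and 4 became 1 and 1 without ♂M-3 replicate 1 or 2, 2 and 1 without ♂M-1 replicate 2, and 2 and 4 without ♂M-1 replicate 1.

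Both ♂M lines had less Ctsh and Trf than ZM-1. Ctsh, the lysosomal protease cathepsin H, averaged 42.3 ± 0.716 in ♂M-1, 34.1 ± 0.481 in ♂M-3, with 116 ± 18.6 in ZM-1 (SD, n = 2 each), with adjusted p = 1.65e-04 and 2.73e-05 against ZM-1. Trf, the iron carrier transferrin, averaged 100.5 ± 4.28 in ♂M-1, 98.8 ± 6.15 in ♂M-3, with 197 ± 9.15 in ZM-1 (SD, n = 2 each), with adjusted p = 3.80e-04 and 1.33e-04. These 2 comparisons share the ZM-1 arrays. The laminin chain Lama1 was higher in ♂M-3, at 454 ± 17.1 in ♂M-3 and 215 ± 7.15 in ZM-1 (SD, n = 2 each, limma adjusted p = 2.00e-04). The laminin chain Lamb1 was lower, at 243 ± 10.2 in ♂M-3 and 403 ± 15.1 in ZM-1 (SD, n = 2 each, limma adjusted p = 4.27e-04). Rbp4, of the same list, was also lower in both ♂M lines than in ZM-1 (limma adjusted p = 0.00324 for ♂M-1 and 0.00813 for ♂M-3). It averaged 22.46 ± 5.30 in ♂M-1, under the range of the lower quartiles, and 28.45 ± 1.53 in ♂M-3, with 47.52 ± 2.28 in ZM-1 (SD, n = 2 each). The visceral endoderm serum genes Ttr, Apoa1, Apoa4 and Apob passed in no pair. Ttr, transthyretin, lay below the quartile range in its line means, at 19.3 ± 2.48 in ♂M-1, 19.9 ± 0.368 in ♂M-3, with 21.1 ± 0.997 in ZM-1.

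The FGF pathway that promotes primitive endoderm fate was covered by 14 genes. Between ♂M-1 and ZM-1 0 passed in limma, against 4.41% of all genes, and 7 had an unadjusted p under 0.05, against 20%. Between ♂M-3 and ZM-1 1 was higher and 2 lower, 21.4% of the list against 15.9% of all genes. Between ♂M-1 and ♂M-3 2 were higher and 0 lower, 14.3% against 6.54%. With 14 genes, no difference from the background is read from these shares. The 1 and 2 became 0 and 1 without ♂M-3 replicate 2 or either ZM-1 array and 0 and 2 without ♂M-3 replicate 1. The 2 higher in ♂M-1 became 0 without replicate 2 of either ♂M line and 1 without replicate 1 of either. Fgf4, the ligand made by the epiblast, averaged 1406 ± 66.3 in ♂M-1, 1478 ± 82.4 in ♂M-3, with 1660 ± 3.92 in ZM-1 (SD, n = 2 each), and passed in no pair (adjusted p between 0.136 and 0.710). Fgfr2, the receptor enriched in primitive endoderm precursors, averaged 72.1 ± 1.23, 65.5 ± 2.5 and 70.2 ± 3.67 in the same lines, and Fgfr1, the receptor shared with the epiblast, 769.9 ± 12.0, 715 ± 7.58 and 676 ± 15.6, with no pair past the test for either. Fgf5, a growth factor of the later epiblast, was 1.62-fold lower in ♂M-3 than in ZM-1 (adjusted p = 0.00247). Nanog, which opposes Gata6, passed in 1 pair, and not between the ♂M lines, where Gata6 had its largest difference, 0.25. Nanog averaged 4086 ± 5.49 in ♂M-3 and 3361 ± 47.3 in ZM-1 (SD, n = 2 each, limma adjusted p = 0.0384). In this pair Gata6 gave −0.16 and did not pass (limma adjusted p = 0.196). The Nanog difference did not pass with any 1 of these 4 arrays left out (adjusted p between 0.0806 and 0.161), after quantile normalization (0.0733) or with all probe sets as features (0.092).

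**Figure D4:**
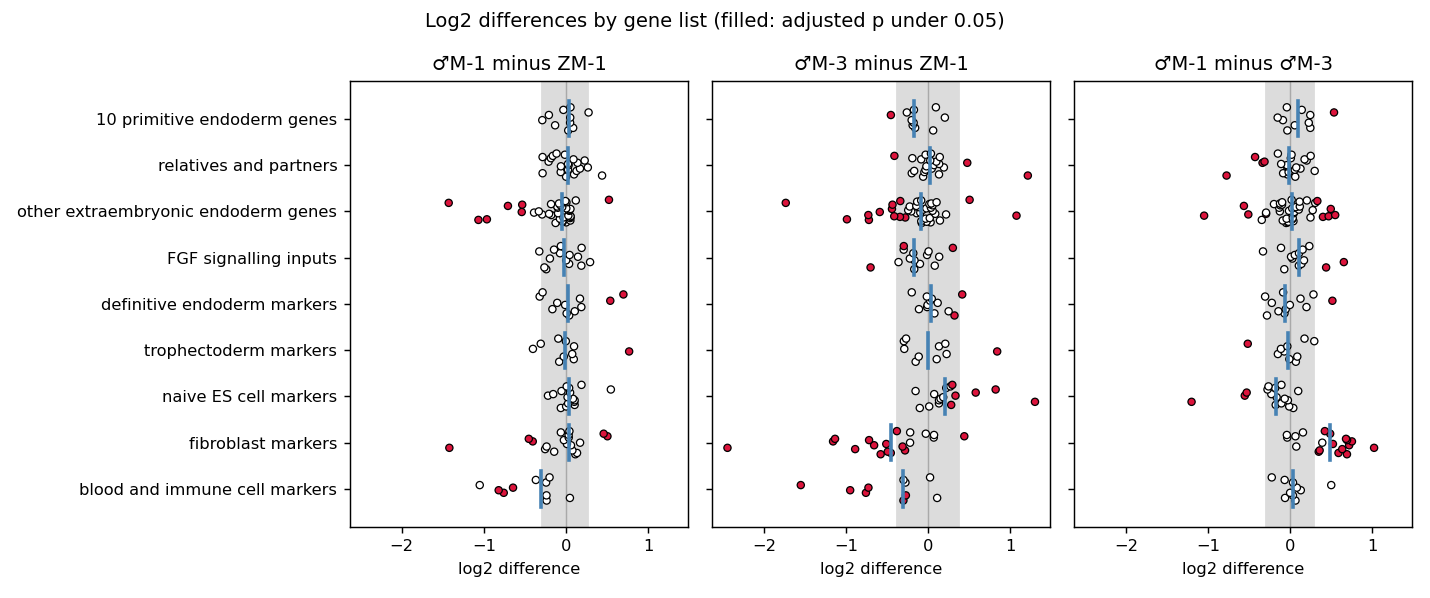
Log2 difference (x axis) of each gene, by list, in the 3 pairs of lines; points are genes, filled where the adjusted p was under 0.05, vertical bars are list medians and the grey band spans the bulk of all genes, without the tails at either end. The medians of the 10 primitive endoderm genes were 0.04, −0.17 and 0.10, and those of the fibroblast markers 0.03, −0.45 and 0.49.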

How the data were processed

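The samples were 6 arrays, 2 repeats each of the ES cell lines ♂M-1, ♂M-3 and ZM-1, grouped by their titles. The authors deposited a linear intensity for each of 35556 probe sets on every array. Per the submitters' processing notes the software was GCOS 1.4. The steps of background correction, summarisation and normalization: not given in the sources used here.

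Probe sets were named from the platform's probe table: 21789 carried 1 symbol, 1621 several and 12146 were not listed. The probe set with the highest mean intensity over the 6 arrays was kept for each of 19938 genes, and log2 was taken after adding 1. Array distributions were close, so no normalization was added. The 3 line means were estimated together from the 6 arrays by limma 3.58.1 under R 4.3.3 (3 residual and 6.01 prior degrees of freedom). It was tested on simulated data, and the tests are two-sided. Arrays have no counting depth, and their number limits the precision. Alternatives were low-value filters, a pseudocount of 16, quantile normalization, median centring, averaged probe sets, all probe sets as features, an intensity trend, fits of the pair alone, a replicate block and leaving out each array.

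Members and gene lists were chosen with earlier results of these data known. All 10 members are named. Of each list, called genes were counted and up to 4 a pair named, the largest differences above the lower quartile in both lines, and relatives and partners whatever their test. Members called and, in their highest line, above the median of all genes had the 3 genes of highest Pearson r named. Nanog, Fgf4, the FGF receptors, Rbp4 and the serum genes Ttr, Apoa1, Apoa4 and Apob were named outside this rule, after their values were seen. Genes measured only by probe sets with several symbols were left out. Promoter windows are RefSeq's, GRCm38.p6.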

Additional observations from a re-analysis of the deposited data

How the results depend on the processing

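Under the 16 alternatives, ♂M-1 against ZM-1 called 0 of the 10 genes throughout. Pdgfra between ♂M-3 and ZM-1 kept its direction in the 15 alternatives that tested it and passed in 12. The count of called members in this pair was 0 among genes above the 50th percentile, where only 1 member was tested, and 0 with all 35556 probe sets as features. It ranged from 0 to 2 when 1 array was left out. Without ZM-1 replicate 1 it was 2, Sox17 (adjusted p = 0.0438) and Foxa2 (0.0473), and without ZM-1 replicate 2 it was 2, Pdgfra (0.04) and Hnf4a (0.0496). Dab2 between ♂M-1 and ♂M-3 kept its direction in 15 and passed in 11. The count of members called there was 0 with averaged probe sets, 0 with all probe sets as features, and 0 to 1 when 1 array was left out. Gata6 between ♂M-1 and ♂M-3 passed among genes above the 50th percentile (0.0286), where fewer genes were tested.

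Over all genes, 880, 3162 and 1303 passed in the ♂M-1 and ZM-1, the ♂M-3 and ZM-1, and the ♂M-1 and ♂M-3 pairs. With all probe sets as features the counts were 275, 2027 and 442, and an intensity trend gave 1632 in ♂M-1 against ZM-1. Leaving out 1 array gave 234 to 631, 1302 to 2750 and 357 to 1495. In these fits the line with a lone array is assumed to vary like the others. With median centring 56.5% of the calls between ♂M-1 and ZM-1 were higher in ♂M-1, beside 42.7% without it, and no member's call changed.

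Signs turned in differences that did not pass the test. For ♂M-1 over ZM-1, Cubn gave 0.023 after quantile normalization and 0.0011 after median centring. Leaving out 1 array gave, in that pair, −0.080 to 0.017 for Cubn, −0.052 to 0.11 for Gata4, −0.30 to 0.041 for Sox17, −0.043 to 0.14 for Sox7, −0.10 to 0.21 for Hnf4a and −0.010 to 0.12 for Afp. For ♂M-1 over ♂M-3 it gave −0.11 to 0.045 for Gata4 and −0.19 to 0.014 for Foxa2. The array left out for the turned sign was ♂M-1 replicate 1 (Cubn, Gata4 and Sox7 over ZM-1), ♂M-1 replicate 2 (Gata4 over ♂M-3), ♂M-3 replicate 2 (Foxa2), ZM-1 replicate 1 (Cubn, Hnf4a and Afp, at 0.017, −0.10 and −0.010) or ZM-1 replicate 2 (Sox17 and Sox7, at 0.041 and −0.0084). Afp lay below the lower quartile in all 6 arrays. Apart from left-out arrays, the causes were not tested.

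Equal repeat numbers did not pair the arrays: the correlations of deviations from line means were −0.03, 0.07 and −0.10. With a replicate block the counts of members stayed at 0, 1 and 1, with adjusted p = 0.0110 for Pdgfra and 0.00973 for Dab2, and 686, 2769 and 1071 genes passed. Of the other genes named in the report, Pdgfb (0.0534) and Pdgfc (0.0645) between the ♂M lines and Nanog (0.0539) between ♂M-3 and ZM-1 did not pass with the block, and 2 in place of 4 relatives and partners were lower in ♂M-1 than in ♂M-3.

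Gene list counts moved by over 1.5 times in several alternatives. With all probe sets as features, the lower extraembryonic endoderm genes numbered 2 and 4 in place of 6 and 11 for ♂M-1 and ♂M-3 over ZM-1, the higher fibroblast markers 8 in place of 13 for ♂M-1 over ♂M-3, and the lower blood markers 1 and 2 in place of 3 and 6 over ZM-1. Lower FGF genes in ♂M-3 numbered 4 in place of 2 with either filter, quantile normalization or an intensity trend. With that trend 10 in place of 6 endoderm genes were lower in ♂M-1 than ZM-1.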

Other observations

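Markers of the other early lineages were measured beside the primitive endoderm genes. Of 12 definitive endoderm markers, 2 were higher and 0 lower in ♂M-1 when set against ZM-1, and 2 higher and 0 lower in ♂M-3 than in ZM-1. Between the ♂M lines, 1 was higher and 0 lower in ♂M-1. The shares were 16.7%, 16.7% and 8.33% of the list, against 4.41%, 15.9% and 6.54% of all genes. The 2 in ♂M-1 became 0 without ♂M-1 replicate 2 and 1 without ZM-1 replicate 2. The 2 in ♂M-3, Lefty1 and Cxcr4, became 0 without either ♂M-3 array or ZM-1 replicate 2. Trh, a hormone precursor gene also active in ES cells, averaged 1946 ± 217 in ♂M-1, 1358 ± 8.63 in ♂M-3, with 1334 ± 7.45 in ZM-1 (SD, n = 2 each). The limma adjusted p was 0.0123 for ♂M-1 against ZM-1 and 0.0110 for ♂M-1 against ♂M-3. With all probe sets as features it was 0.0814 for each pair, past the threshold in neither. Both calls were lost without ♂M-1 replicate 2 (adjusted p = 0.0908 and 0.0941), and the second also without ♂M-3 replicate 1 (0.0774) or 2 (0.0709).

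Of 10 trophectoderm markers, 10% passed in each pair, against 4.41%, 15.9% and 6.54% of all genes in the same order of pairs. In each ♂M line 1 was higher than in ZM-1 and 0 lower, and 0 were higher and 1 lower in ♂M-1 than in ♂M-3. That 1 became 0 without either ♂M-1 array or ♂M-3 replicate 2, and without ZM-1 replicate 1 the 0 lower became 1 in ♂M-1 and 2 in ♂M-3. Tfap2c, a trophoblast and germ cell factor, averaged 333 ± 20.3 in ♂M-1, 349 ± 4.53 in ♂M-3, with 195 ± 26.0 in ZM-1 (SD, n = 2 each, limma adjusted p = 0.00366 and 8.79e-04 against ZM-1). The first of these did not pass once ♂M-1 replicate 2 was left out (adjusted p = 0.0552). With all probe sets as features the Tfap2c difference between ♂M-1 and ZM-1 did not pass either (limma adjusted p = 0.0538). Cdx2, the trophectoderm regulator, averaged 44.2 ± 2.28 in ♂M-1, 42.1 ± 3.78 in ♂M-3, with 46.9 ± 4.85 in ZM-1, and passed in no pair. Of 16 naive ES cell markers, 0 passed in limma between ♂M-1 and ZM-1 (3 had an unadjusted p under 0.05, against 20% of all genes). Between ♂M-3 and ZM-1, 6 were higher and 0 lower in ♂M-3, 37.5% of the list against 15.9% of all genes. Between the ♂M lines, 0 were higher and 3 lower in ♂M-1, 18.8% against 6.54%. The 6 became 2 without ♂M-3 replicate 2 and 3 without ♂M-3 replicate 1 or either ZM-1 array, and the 3 became 1 without ♂M-1 replicate 2.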
